A study of Homo sapiens with 6 samples.

Results

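MHC class I antigen presentation was examined through 9 genes, HLA-B, HLA-C, HLA-E, HLA-F, B2M, TAP1, TAP2, TAPBP and PSMB9, out of the 25369 genes in the deposited tables. They were chosen by symbol as the heavy chains, the invariant light chain and the peptide supply machinery of the pathway. Earlier results of these data were known when they were chosen. All 9 passed the filter on low values that left 13303 genes for testing. RNA-Seq compared Caki2 cells with an empty vector (Caki2+Vector) and Caki2 cells expressing PBRM1 (Caki2+PBRM1), in 3 samples each, labelled A, B and C, to ask which transcripts respond to PBRM1 re-expression. Caki2 is an established line of clear cell renal cell carcinoma without PBRM1 protein, and PBRM1 is a subunit of the PBAF chromatin remodeling complex. Both groups are stable lentiviral lines with a tetracycline-inducible vector, used with a transactivator driven by the CMV promoter, and both were kept in doxycycline at 2 µg/mL, so the controls share the drug, while PBRM1 came from an introduced construct. The measured RNA is poly(A) RNA of a bulk culture of a single line, in which fewer cells expressing a gene and less RNA per cell cannot be told apart. The paper calls the samples biological replicates, but neither it nor the labels say whether they came from separate cultures. The p-values therefore measure the spread between these samples, which may be technical.

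Class I molecules display short peptides from inside the cell to CD8 T cells and to receptors of NK cells. The peptides are cut by the proteasome, in which interferon-inducible immunoproteasome subunits can replace the constitutive catalytic subunits, and are carried into the endoplasmic reticulum by the TAP1-TAP2 transporter. Tapasin, encoded by TAPBP, holds the heavy chain and its light chain β2-microglobulin at the transporter until a peptide of good fit is bound. Transcription of these genes is raised by interferons and by NF-κB, and in renal carcinoma cells the level of class I bears on recognition by T cells and NK cells.

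The heavy chain genes HLA-B and HLA-C have nearly the same promoter, TAP1 and PSMB9 are transcribed away from each other from a shared stretch. Their promoters are shown because the results below separate the members of both pairs, and that of TAPBP because it is the other gene that rose. RefSeq promoter windows were matched for 8 of the 9 genes. For 5 of them the 250 bases before the start site are printed 5′ to 3′ on the strand of the gene, each found exactly in GRCh37: HLA-B at chr6:31324957-31325206 (minus strand), HLA-C at chr6:31239870-31240119 (minus), TAP1 at chr6:32821482-32821731 (minus), PSMB9 at chr6:32821719-32821968 (plus) and TAPBP at chr6:33281856-33282105 (minus). Capitals mark matches, on either strand, to 4 motifs, and matches that overlap or touch run together.
HLA-B: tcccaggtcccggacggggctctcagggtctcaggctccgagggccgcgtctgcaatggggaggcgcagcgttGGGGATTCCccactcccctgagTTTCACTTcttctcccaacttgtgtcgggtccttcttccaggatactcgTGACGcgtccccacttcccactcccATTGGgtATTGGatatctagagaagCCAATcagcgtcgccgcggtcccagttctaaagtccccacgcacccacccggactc
HLA-C: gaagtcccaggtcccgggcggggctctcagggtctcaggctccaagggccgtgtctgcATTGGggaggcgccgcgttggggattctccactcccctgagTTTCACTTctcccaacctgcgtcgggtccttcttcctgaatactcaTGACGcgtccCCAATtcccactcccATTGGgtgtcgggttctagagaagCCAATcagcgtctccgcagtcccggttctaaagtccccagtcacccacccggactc
TAP1: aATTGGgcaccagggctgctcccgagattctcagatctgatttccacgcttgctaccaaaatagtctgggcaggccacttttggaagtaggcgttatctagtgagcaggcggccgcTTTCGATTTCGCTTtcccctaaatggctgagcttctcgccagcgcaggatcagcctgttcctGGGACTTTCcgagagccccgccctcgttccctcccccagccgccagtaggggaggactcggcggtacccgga
PSMB9: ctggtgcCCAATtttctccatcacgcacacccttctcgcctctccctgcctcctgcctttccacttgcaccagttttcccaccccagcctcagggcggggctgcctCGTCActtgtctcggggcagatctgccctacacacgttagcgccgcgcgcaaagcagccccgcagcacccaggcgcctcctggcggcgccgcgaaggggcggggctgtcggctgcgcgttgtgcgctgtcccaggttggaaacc
TAPBP: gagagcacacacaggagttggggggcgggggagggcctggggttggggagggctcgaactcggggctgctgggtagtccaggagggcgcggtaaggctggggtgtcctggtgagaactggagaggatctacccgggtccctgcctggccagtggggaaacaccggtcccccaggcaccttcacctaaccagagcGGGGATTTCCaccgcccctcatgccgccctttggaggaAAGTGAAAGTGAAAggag
The motifs searched were GGGNNTTNC, a κB type sequence found in 14.2% of 35116 RefSeq promoter windows of this length, AANNGAAA, a core of interferon regulatory factor sites found in 20.3%, TGACG, the core of cyclic AMP response elements, found in 21.2%, and CCAAT, found in 32.0%. The HLA-B and HLA-C windows were identical at 226 of 254 aligned columns (89.0%). Each held 1 AANNGAAA and 1 TGACG match, and the κB type match GGGGATTCC lay 177 bases before the start of HLA-B, while HLA-C had 0 matches to that motif. TAP1 held 1 κB type match and 2 overlapping AANNGAAA matches, and the PSMB9 window held 0 of either, 1 TGACG and 1 CCAAT match. These TAP1 matches lie between the starts of both genes, 487 bases apart, but outside the 250 bases printed for PSMB9. TAPBP held 2 κB type matches, 56 and 55 bases before its start, which cover nearly the same bases and are not separate sites. It also held 2 overlapping AANNGAAA matches, of which the nearest lay 12 bases before its start. Of the windows not printed, that of B2M, a gene not called below, held 1 κB type match, 124 bases before its start, and 2 AANNGAAA matches. Those of HLA-F and TAP2 held 0 κB type matches, and a second listed TAP1 start held 0 matches to each motif. These matches describe the reference sequence, and no binding was measured here.

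The depth ran from 7312955 to 10835355 gene reads a sample, and the values below are normalized counts, that is, reads divided by a size factor for the sample. PBRM1 itself was measured at 195.0, 182.3 and 182.2 in Caki2+Vector A, B and C and at 2431.7, 2520.7 and 2682.4 in Caki2+PBRM1 A, B and C, which fits the labels (log2 fold change 3.76, SE 0.056, adjusted p = 3.33e-29 from limma). Counts do not separate the endogenous transcript from the construct. Of 10 markers of kidney epithelium and clear cell carcinoma 9 passed the filter, and CA9, a hypoxia-induced carbonic anhydrase, did not. The sum of the 10, in which VIM had the largest share, was 35972.3 to 37006.6 in the controls and 37487.1 to 38393.1 with PBRM1. Single markers moved: 3 were called higher and 2 lower, beside 16.2% and 13.0% of all genes tested. CDH6 was at 1.12 on the log2 scale (adjusted p = 1.59e-18, limma) and KRT18 at -0.34 (adjusted p = 1.74e-07). Of 10 leukocyte markers CD68 and ITGAM passed the filter, and the T cell markers CD3E and CD3D were at 0 in all 6 samples. The leukocyte sum, mostly CD68, ran from 2176.4 to 2374.2 in Caki2+Vector and from 2108.3 to 2141.2 in Caki2+PBRM1. CD68 was called lower (-0.11, adjusted p = 0.0461, limma). Of 6 endothelial markers 0 passed, with CDH5 and TEK at 0 throughout. Caki2+Vector A stood apart from B and C: the chi-square of gene reads, divided by its degrees of freedom, was 3.09 against B and 2.84 against C, compared with 1.34 between B and C and with 1.19 to 1.22 among the Caki2+PBRM1 samples. Calls of the 9 genes that this sample changes are given both ways.

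Of the 9 genes, HLA-B and TAPBP rose and PSMB9 fell in Caki2+PBRM1, and the other 6 did not pass the test. The RNA of HLA-B was higher by 34.1% and that of TAPBP by 13.0%, and the fitted difference of PSMB9 RNA was -17.6%. At an adjusted p under 0.05 from limma on log2(normalized count + 1), 29.2% of the 13303 genes tested were called in this comparison, 16.2% higher and 13.0% lower, so 3 of 9 is near the share of all genes. On reads recovered from the normalized counts, edgeR (30.3% of genes called) and DESeq2 (19.2% called, 11.2% higher and 7.95% lower) also called 2 of the 9 genes higher and 1 lower. In the same 3 genes the replicates of both groups did not overlap, beside 41.7% of all genes tested. The median log2 fold change of the 9 genes was 0.0 and its median size 0.05, beside 0.0 and 0.14 for all genes tested.

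**Figure D1:**
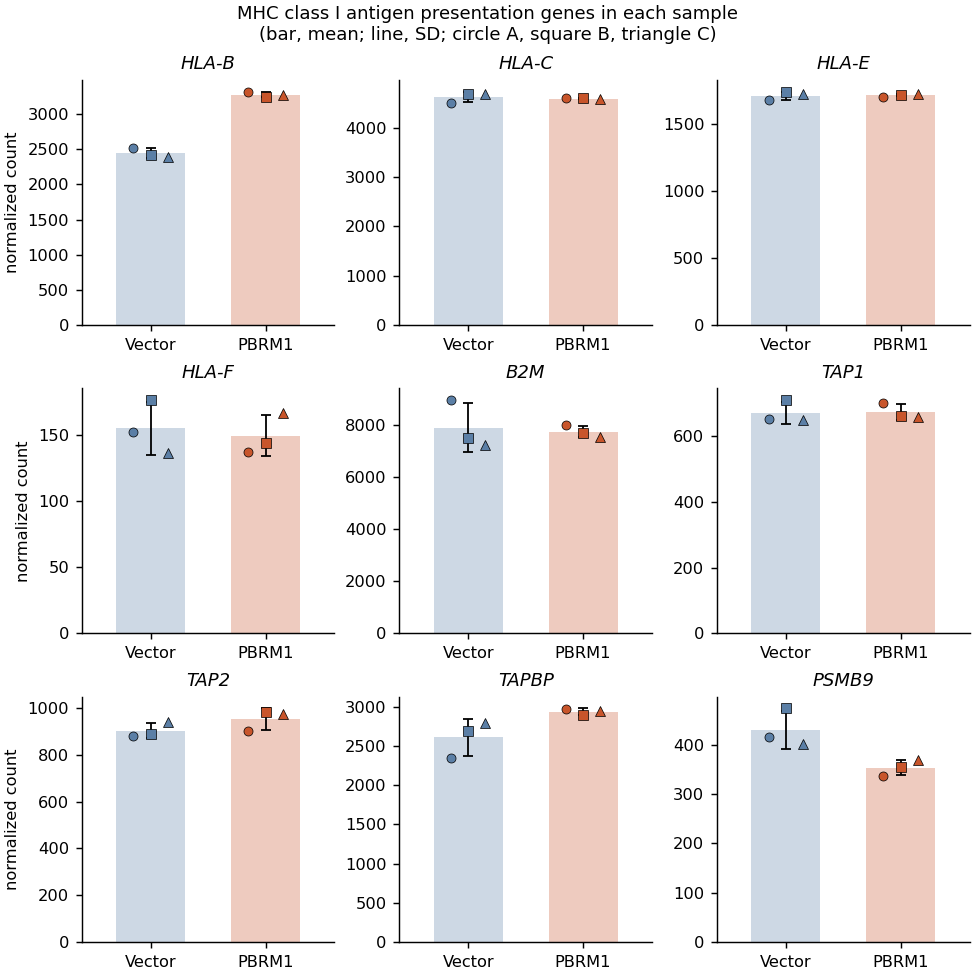
Normalized counts of the 9 class I genes in the 6 samples (y axis, reads divided by the size factor), with a panel for each gene; points are the replicates of Caki2+Vector and Caki2+PBRM1, bars the mean and SD. The groups separate for HLA-B, TAPBP and PSMB9 and overlap for the other 6 genes.

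The classical heavy chains differed from each other. HLA-B (ENSG00000234745, GRCh37 chr6:31321652-31324956, minus strand, 8 exons), which presents peptides to CD8 T cells, was measured at 2525.8, 2425.2 and 2385.1 in Caki2+Vector A, B and C and at 3322.1, 3242.5 and 3269.9 in Caki2+PBRM1 A, B and C. Every Caki2+PBRM1 sample lay well above every Caki2+Vector sample, and the spread within a group was small beside the gap. The means were 2445.4 ± 72.4 and 3278.1 ± 40.4 (SD, n = 3 each), a log2 fold change of 0.42 (SE 0.038, 95% interval 0.34 to 0.5, adjusted p = 6.22e-10, limma). An exact two-sided permutation test of the counts gave p = 0.1, the smallest that a design of 3 and 3 samples can reach. The log2 fold change stayed between 0.38 and 0.45 under every alternative run, with a largest adjusted p of 1.09e-06 (limma).

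HLA-C (ENSG00000204525, chr6:31236526-31239869, minus strand), whose products are the main ligands of the KIR receptors of NK cells, was at 4495.8, 4685.1 and 4681.6 in Caki2+Vector and at 4593.7, 4594.4 and 4575.8 in Caki2+PBRM1. The Caki2+PBRM1 samples fell inside the range of the controls. The log2 fold change was -0.01 with a 95% interval of -0.08 to 0.06 (adjusted p = 0.861, limma), an interval that does not reach the difference of HLA-B. The ratio of HLA-B to HLA-C normalized counts within a sample, chosen after the values were seen, was 0.562, 0.518 and 0.509 in Caki2+Vector and 0.723, 0.706 and 0.715 in Caki2+PBRM1. It did not overlap between groups (0.53 ± 0.0282 against 0.715 ± 0.00872, SD, n = 3; exact permutation p = 0.1), and it does not depend on the size factors. These are the genes whose printed promoters were 89.0% identical.

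The nonclassical heavy chains did not pass the test. HLA-E (chr6:30457286-30461971, plus strand), which presents leader peptides of other class I chains to the NK receptor NKG2A, ran from 1682.3 to 1739.3 in Caki2+Vector and from 1708.2 to 1728.1 in Caki2+PBRM1. The groups overlapped fully, and the log2 fold change was 0.0 with a 95% interval of -0.08 to 0.09 (adjusted p = 0.969, limma). The ratio of HLA-C to HLA-E was 2.69 ± 0.02 in the controls and 2.67 ± 0.0207 with PBRM1 (SD, n = 3), with overlapping groups. HLA-F (chr6:29691211-29695073, plus strand), a heavy chain that can reach the surface without peptide, was the least abundant of the 4, at 152.4, 176.7 and 136.6 in Caki2+Vector and 137.6, 144.0 and 167.0 in Caki2+PBRM1. Its 114 to 199 reads per sample give a wide interval, from -0.27 to 0.17 around a log2 fold change of -0.05 (adjusted p = 0.769, limma), so a change of the size seen for PSMB9 would lie just outside it.

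B2M (ENSG00000166710, chr15:45003715-45010343, plus strand), the light chain that every heavy chain needs to leave the endoplasmic reticulum, is the only gene of the 9 outside chromosome 6. It was at 8963.2, 7495.8 and 7224.9 in Caki2+Vector and at 7992.7, 7700.9 and 7553.6 in Caki2+PBRM1. The high value of Caki2+Vector A, the sample that stood apart, widened the control group to 7894.6 ± 935.3, against 7749.1 ± 223.5 in Caki2+PBRM1 (SD, n = 3). The log2 fold change was -0.02 (95% interval -0.19 to 0.15, adjusted p = 0.867, limma). Without Caki2+Vector A it was 0.07 and passed the test (adjusted p = 0.0272, limma), with Caki2+PBRM1 higher.

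The transporter subunits did not pass the test. TAP1 (chr6:32812986-32821481, minus strand), which with TAP2 pumps peptides across the membrane of the endoplasmic reticulum, was at 652.3, 709.5 and 649.6 in Caki2+Vector and at 701.9, 660.4 and 657.2 in Caki2+PBRM1. TAP2 (chr6:32793192-32806516, minus strand) was at 882.3, 889.0 and 940.9 in Caki2+Vector and at 900.1, 984.8 and 972.7 in Caki2+PBRM1. The groups overlapped for both. The log2 fold changes were 0.01 for TAP1 (95% interval -0.11 to 0.12, adjusted p = 0.951, limma) and 0.07 for TAP2 (-0.03 to 0.18, adjusted p = 0.298).

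TAPBP (chr6:33267471-33281855, minus strand), the tapasin gene, was at 2339.3, 2688.8 and 2792.6 in Caki2+Vector and at 2974.4, 2896.7 and 2941.7 in Caki2+PBRM1. All Caki2+PBRM1 samples were higher, and the lowest control was Caki2+Vector A, which was the highest control for B2M. The means were 2606.9 ± 237.5 and 2937.6 ± 39.0 (SD, n = 3), with a log2 fold change of 0.18 (SE 0.05, 95% interval 0.07 to 0.28, adjusted p = 0.00991, limma). Single samples decided its size and its call: without Caki2+Vector A the log2 fold change was 0.1 (adjusted p = 0.0154, limma), and without Caki2+PBRM1 A it was 0.17 and no longer passed (adjusted p = 0.0545). The ratio of TAPBP to TAP1 overlapped between groups, at 3.89 ± 0.367 and 4.37 ± 0.121 (SD, n = 3).

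PSMB9 (chr6:32821969-32827628, plus strand) encodes LMP2, the interferon-inducible subunit that replaces PSMB6 in the immunoproteasome. It was at 415.6, 474.3 and 402.7 in Caki2+Vector and at 337.9, 355.5 and 369.3 in Caki2+PBRM1, each Caki2+PBRM1 sample below each control. The means were 430.9 ± 38.1 and 354.3 ± 15.7 (SD, n = 3), a log2 fold change of -0.28 (SE 0.072, 95% interval -0.43 to -0.13, adjusted p = 0.00358, limma). The call held without each sample in turn, with values from -0.33 to -0.21, the smallest in size without Caki2+Vector B (adjusted p = 0.0435, limma).

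**Figure D2:**
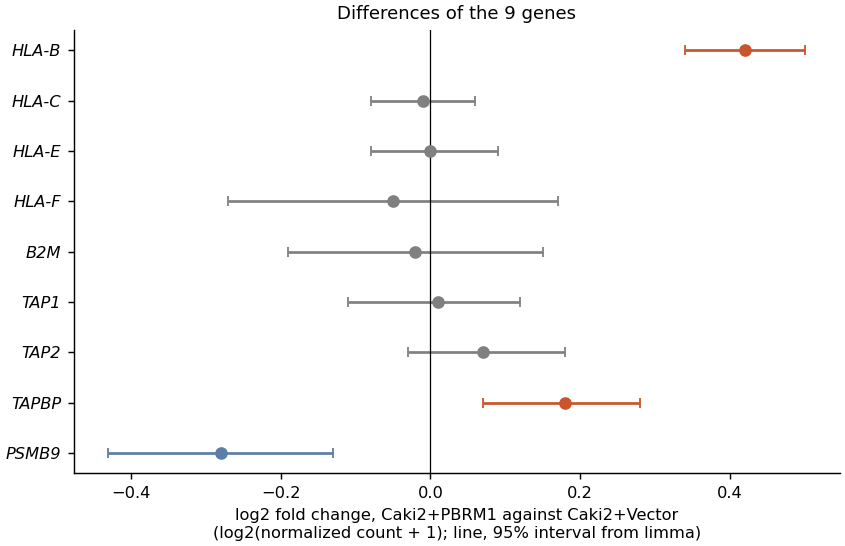
Log2 fold change of Caki2+PBRM1 against Caki2+Vector for the 9 class I genes (x axis, on the log2(normalized count + 1) scale), with 95% intervals from limma. HLA-B at 0.42 and TAPBP at 0.18 lie above 0, PSMB9 at -0.28 below it, and the intervals of the other 6 genes span 0.

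TAP1 and PSMB9 start 487 bases apart on opposite strands, so the windows printed above fill the space between them. Their ratio within a sample, PSMB9 over TAP1 and chosen after the values were seen, was 0.637, 0.668 and 0.62 in Caki2+Vector and 0.481, 0.538 and 0.562 in Caki2+PBRM1, without overlap (0.642 ± 0.0246 against 0.527 ± 0.0414, SD, n = 3; exact permutation p = 0.1). Of the nearest tested genes, PSMB8, the immunoproteasome subunit LMP7, lies 1162 bases from this pair and fell by 0.28 on the log2 scale (adjusted p = 2.13e-05, limma), with a range of 1206.9 to 1265.7 in the controls and of 1013.8 to 1029.0 with PBRM1. TAP2, beyond it at 6470 bases, is described above. HLA-DMB, 74785 bases away, had a log2 fold change of 0.69 and did not pass (adjusted p = 0.058, limma). Its low counts ran from 10.8 to 12.3 in Caki2+Vector and from 18.4 to 20.1 in Caki2+PBRM1. HLA-DMA, at 88767 bases, was at -0.1 (adjusted p = 0.669). BRD2, a chromatin reader 108743 bases away, had a log2 fold change of 0.0 (adjusted p = 0.99). Among the 107 tested genes of the MHC region, from TRIM27 to ZBTB9 on chromosome 6, 11 were higher and 23 lower, with a median log2 fold change of -0.06. Without the 8 class I genes that lie there, 9 of 99 were higher and 22 lower, with a median of -0.07. Of all 13303 genes tested, 16.2% were higher and 13.0% lower.

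The order of the 9 genes by level, given as normalized counts per kilobase of the principal transcript, was the same in both groups. This order rests on the annotated length, and which transcripts Caki2 expresses was not tested. Without division by length, TAP2 lay above TAP1 in Caki2+Vector (means 904.1 and 670.5). TAPBP then lay above HLA-B in Caki2+Vector (2606.9 and 2445.4) and below it in Caki2+PBRM1 (2937.6 and 3278.1). B2M led with 8371.8 ± 991.8 in the controls and 8217.5 ± 237.0 with PBRM1 (SD, n = 3), followed by HLA-C with 2996.6 ± 70.2 and 2975.3 ± 6.8 and by HLA-B with 1592.0 ± 47.2 and 2134.2 ± 26.3. TAPBP came next with 755.6 ± 68.8 and 851.5 ± 11.3, then HLA-E with 673.4 ± 11.7 and 674.7 ± 4.0. The light chain lay above each of the 4 heavy chains on this scale, and HLA-B lay nearer to HLA-C in Caki2+PBRM1 than in the controls. PSMB9 stood at 423.7 ± 37.5 and 348.3 ± 15.4, TAP1 at 249.7 ± 12.6 and 250.7 ± 9.3, TAP2 at 160.2 ± 5.7 and 168.8 ± 8.1, and HLA-F at 104.9 ± 13.6 and 101.0 ± 10.5. The lowest replicate of each gene lay above the highest replicate of the next in this order, except for TAPBP and HLA-E in Caki2+Vector, where the lowest TAPBP value was 678.0 and the highest HLA-E value 682.6.

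Reads of other genes could enter these counts. The library preparation as described does not mark the strand, and annotated transcripts on the opposite strand share 23.7% of the exon bases of HLA-B, 21.5% of TAP1 and 40.5% of TAPBP, while a readthrough transcript on the same strand shares 35.8% of TAP2; none of these was a row of the tables. HLA-F shares 17.4% of its exon bases with HLA-F-AS1, which was at 40.1 to 58.7 normalized counts. Among windows of 100 bases, the length of a read, 0 of 1437 in HLA-B and 4 of 1443 in HLA-C occurred exactly in a gene elsewhere in the GRCh37 annotation, and 15 of 2449 in HLA-E. HLA genes are highly polymorphic, the alleles of Caki2 were not read here, and a change in one class I heavy chain could hold reads of a near-identical paralog.

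The immunoproteasome list gave the members that surround PSMB9. Among all genes tested 13.0% fell and 16.2% rose. Of 5 genes tested 3 fell and 0 rose: PSMB8 as above, PSME1, a subunit of the proteasome activator PA28, by 0.33 on the log2 scale (adjusted p = 5.47e-06, limma), and PSME2, its partner, by 0.39 (adjusted p = 8.4e-06). PSME1 ran from 1313.6 to 1432.3 in Caki2+Vector and from 1043.2 to 1137.3 in Caki2+PBRM1, and PSME2 from 668.8 to 751.1 and from 511.1 to 571.5, both without overlap. PSMB10, the remaining catalytic subunit of the immunoproteasome, had a log2 fold change of 0.08 (adjusted p = 0.608), and POMP, the assembly chaperone, of -0.1 (adjusted p = 0.106).

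The constitutive 20S proteasome moved the same way. Of its 14 subunit genes 10 fell and 0 rose, beside 13.0% and 16.2% of all genes tested. The median log2 fold change of the 14 was -0.15. PSMB6, which PSMB9 replaces, was among those that changed most, at -0.3 (adjusted p = 4.44e-05, limma), with a range of 930.1 to 1009.0 in the controls and of 768.8 to 809.1 with PBRM1. The structural subunits PSMA3, PSMA2 and PSMA4 changed by -0.25, -0.24 and -0.22, whereas PSMB5, which PSMB8 replaces, was at -0.09 and did not pass (adjusted p = 0.171). Without Caki2+PBRM1 B, 6 of the 14 fell.

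Ratios of each inducible catalytic subunit to the constitutive subunit it replaces, also chosen after the values were seen, differed among the 3 pairs. PSMB9 over PSMB6 was 0.435, 0.47 and 0.433 in Caki2+Vector and 0.418, 0.462 and 0.478 in Caki2+PBRM1, with overlapping groups (exact permutation p = 0.9), while both genes had fallen. PSMB8 over PSMB5 went from 1.03 ± 0.0458 to 0.901 ± 0.00205 (SD, n = 3) without overlap (exact permutation p = 0.1). PSMB10 over PSMB7 was 0.214 ± 0.0374 and 0.257 ± 0.0314, with overlap.

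**Figure D3:**
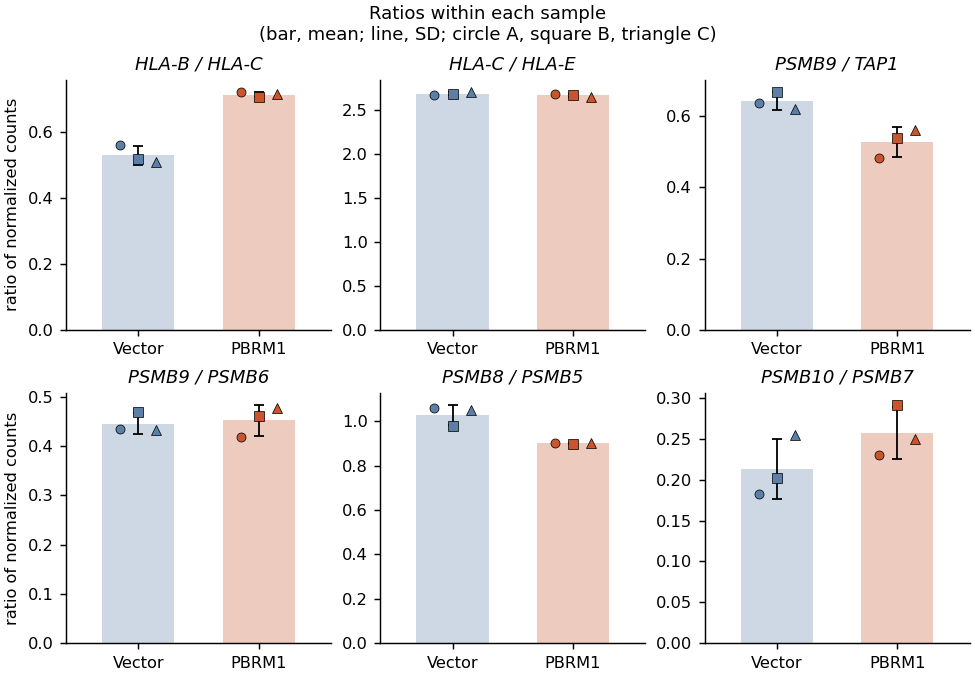
Ratios of normalized counts within each sample (y axis, no unit) for pairs of class I genes and for immunoproteasome against constitutive proteasome subunits; points are the 3 replicates of each group, bars the mean and SD. HLA-B over HLA-C, PSMB9 over TAP1 and PSMB8 over PSMB5 separate the groups, while PSMB9 over PSMB6 overlaps.

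Chaperones and trimming enzymes of the endoplasmic reticulum changed little. Among all genes tested 16.2% rose and 13.0% fell. Of 10 genes tested 2 rose and 0 fell: CALR, the calreticulin of the peptide loading complex, by 0.16 (adjusted p = 0.00041, limma), and PDIA3, its thiol oxidoreductase ERp57, by 0.1 (adjusted p = 0.0466). CALR ran from 9683.6 to 10170.4 in Caki2+Vector and from 10762.9 to 11238.2 in Caki2+PBRM1, without overlap. With edgeR or DESeq2, without Caki2+Vector C, or without any of the Caki2+PBRM1 samples in turn, 1 gene of the list rose. With Caki2+Vector A left out 1 gene of the list fell, and under quantile normalization 2 fell. The peptide trimming enzymes ERAP1 at -0.11 (adjusted p = 0.0758) and ERAP2 at 0.05 (adjusted p = 0.508) did not pass.

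Among 16 transcription factors and cofactors known to act on class I genes, 5 fell and 1 rose. The shares of all genes tested were 13.0% and 16.2%. RFX5, a DNA-binding subunit of the RFX complex at class I and class II promoters, was at 680.7, 667.0 and 695.2 in the controls and at 565.4, 544.0 and 538.0 with PBRM1, without overlap. Its log2 fold change was -0.31 (adjusted p = 8.44e-05, limma), and that of RFXANK, another subunit, was -0.35 (adjusted p = 0.00669). NFYB, IRF2 and NFKB1 fell by 0.26, 0.25 and 0.16, and NFYA, a partner of NFYB at CCAAT boxes, rose by 0.2 (adjusted p = 0.013). NLRC5, the class I transactivator, was at 81.3 to 91.8 in the controls and 91.0 to 105.8 with PBRM1 and did not pass (log2 fold change 0.16, adjusted p = 0.348), nor did IRF1 (-0.18, adjusted p = 0.115) or RELA (0.14, adjusted p = 0.0926). With DESeq2 or without Caki2+PBRM1 A, 2 of the 16 fell, and without Caki2+PBRM1 B or without Caki2+Vector C, 3 fell. The rise did not hold throughout: 0 of the 16 rose with DESeq2, without Caki2+PBRM1 B or without Caki2+PBRM1 C, and 2 rose without Caki2+Vector C.

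Of the interferon receptors and their kinases, 9 of 10 listed genes were tested. In this list 1 gene was higher and 1 lower, beside 16.2% and 13.0% of all genes tested. Both are chains of the interferon γ receptor. IFNGR1, the ligand-binding chain, was at 551.0, 546.1 and 542.9 in Caki2+Vector and at 746.3, 748.4 and 763.8 in Caki2+PBRM1 (log2 fold change 0.46, adjusted p = 1.04e-07, limma). IFNGR2, the second chain, went the other way, from 754.5, 711.4 and 761.1 to 558.9, 562.6 and 605.1 (-0.37, adjusted p = 9.5e-06). Neither overlapped between groups. JAK1, a kinase that interferon receptors share, was listed at 0 to 3 reads in each of the 6 samples and was below the filter; it is a broadly expressed gene, how reads were assigned to it was not tested, and the count does not show that the cells lack it. JAK2 and TYK2 were tested and did not pass (-0.04, adjusted p = 0.869, and 0.03, adjusted p = 0.764).

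**Figure D4:**
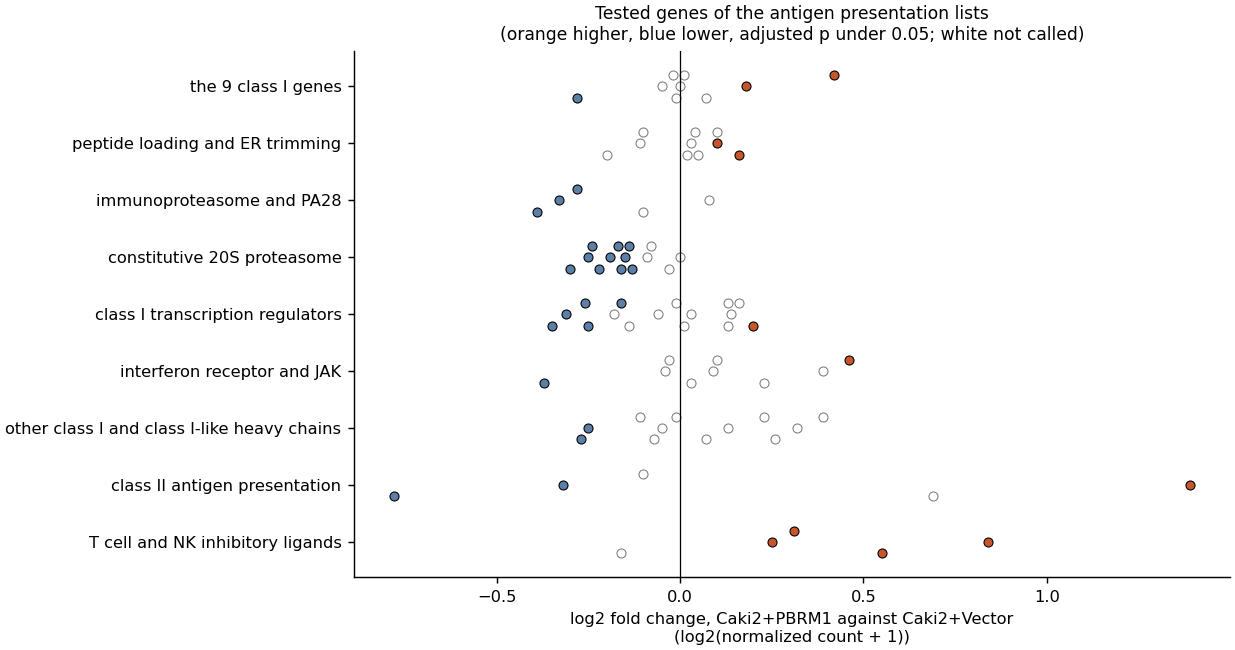
Log2 fold changes (x axis, Caki2+PBRM1 against Caki2+Vector on the log2(normalized count + 1) scale) of the tested genes in each antigen presentation list (y axis); a point is a gene, filled where it passed an adjusted p under 0.05 in limma. All 10 called subunits of the constitutive 20S proteasome and all 3 called genes of the immunoproteasome list lie below 0, and the 9 class I genes spread from -0.28 to 0.42.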

How the data were processed

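RNA-Seq of 3 Caki2+Vector and 3 Caki2+PBRM1 samples, grouped by the sample labels, was analysed; no sample was left out. The authors aligned reads to hg19 with STAR, counted them on genes with HTSeq and normalized with DESeq2. The deposited signal is a normalized count per gene, reads divided by a size factor per sample (0.834 to 1.191); 100.0% of the values came out as whole reads within 0.01. Genes with 10 or more normalized counts in 3 or more samples (13303) were compared by limma 3.58.1 in R 4.3.3 on log2(normalized count + 1), trend and robust, without the replicate letter, with Benjamini-Hochberg adjustment and a threshold of 0.05; fold changes on this scale understate those of low genes. SE is that of limma. For single values an exact two-sided permutation test was used (smallest p 0.1). On the recovered reads, edgeR 4.0.16 called 4030 genes and DESeq2 1.42.0 called 2553, beside 3886 in limma. Other alternatives were voom, other filters, pseudocounts of 0.5 and 4, quantile and TMM scaling, a threshold of 0.01, the replicate block and leaving out each replicate. Of these steps, only the limma fit was tested on simulated counts.

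The named genes are the 9 class I genes, PBRM1, up to 4 called genes per pathway list with the largest changes, genes at 0 or under the filter, and up to 5 tested genes nearest to TAP1 and PSMB9; other list genes were named after their values were seen. The members and lists were chosen with earlier results of these data known, and 1 gene of the regulator list is not reported here. Positions came from GENCODE on GRCh37 by symbol (129 of 131 listed genes), promoters from the RefSeq table of build GRCh38.p14, placed in GRCh37 by exact match. Whether alternate MHC haplotypes were part of the authors' reference is not given in the sources used here. At 7312955 to 10835355 reads on genes per sample, counting error is small for all but the low genes. Figures were drawn with matplotlib 3.10.9 in Python 3.11.15.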

Additional observations from a re-analysis of the deposited data

How the results depend on the processing

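Of 17 alternatives to the processing, the calls of HLA-B and PSMB9 held in each. The number of class I genes called higher was 2; leaving out each replicate gave 1 to 3, with 1 without Caki2+PBRM1 replicate A, where TAPBP was at 0.17 and lost its call (adjusted p = 0.0545, limma), and 3 without Caki2+Vector replicate A, where B2M was called at 0.07. Leaving out each replicate gave log2 fold changes of -0.03 to 0.0 for HLA-C, -0.01 to 0.01 for HLA-E, -0.14 to 0.05 for HLA-F, -0.08 to 0.07 for B2M, -0.02 to 0.05 for TAP1 and 0.1 to 0.23 for TAPBP, so these signs of genes near 0, TAPBP aside, carry no direction; HLA-E was at -0.03 under quantile normalization. Over all pathway lists, 23 genes were lower, and 14 at an adjusted p under 0.01. Of all genes tested, 1734 were lower in limma, 1057 in DESeq2 and 1025 at the stricter threshold. The causes of these shifts were not tested, except that the stricter threshold admits fewer genes.

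In a fit with a replicate block, the letter as a term, 2 class I genes were higher and 1 lower, 9 and 23 over the lists, and HLA-B was at 0.42, so no call of a class I gene changed. Deviations of samples with the same letter correlated across genes by -0.008 to 0.014, so the letters were not taken to pair the samples. At this depth HLA-F, with 114 to 199 reads per sample, was the least precisely measured of the 9 genes (SE 0.108).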

Other observations

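Among other class I and class I-like heavy chains, 12 of 16 listed genes were tested and 2 fell, beside 13.0% of all genes tested. MICB, a stress-induced ligand of the NK receptor NKG2D, fell by 0.25 on the log2 scale (adjusted p = 0.0113, limma), and PROCR, the endothelial protein C receptor, fell by 0.27 (adjusted p = 0.018). Neither call was firm: 0 genes of the list fell with DESeq2, at an adjusted p under 0.01 or without Caki2+PBRM1 C, and 1 fell without Caki2+PBRM1 B. With edgeR, and without Caki2+Vector B or C in turn, 1 gene rose. MICA, the paralog of MICB, was at -0.07 (adjusted p = 0.565), and HLA-G, best known from placenta, was at 0 to 1.2 normalized counts. Of 15 class II genes 5 were tested and 10 were below the filter, 5 of them at 0 in all 6 samples, and CIITA, the class II transactivator, had 1 read in every sample. CD74, the invariant chain, was at 179.9, 212.6 and 201.4 in Caki2+Vector and at 119.1, 113.8 and 111.6 in Caki2+PBRM1 (log2 fold change -0.78, adjusted p = 4.86e-07, limma). CTSS, the protease cathepsin S, was at 34.1, 35.0 and 41.9 and at 106.2, 91.5 and 97.4 (1.39, adjusted p = 2.2e-08). IFI30, a lysosomal thiol reductase, fell by 0.32 (adjusted p = 0.000128). PTPRC, the pan-leukocyte marker CD45, was at 3.8 to 5.7 in the controls and 0 to 1.1 with PBRM1, and its part in the class II values was not tested.

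Of 8 ligands in the tables that restrain T cells, NK cells or macrophages, 5 were tested, 4 rose and 0 fell. The shares of all genes tested were 16.2% and 13.0%. CD274, which encodes PD-L1, was at 110.8, 104.9 and 103.1 in Caki2+Vector and at 183.1, 198.2 and 193.0 in Caki2+PBRM1 (log2 fold change 0.84, adjusted p = 1.1e-07, limma). CD47, the ligand of SIRPα, CD276 (B7-H3) and PVR (CD155) rose by 0.55 (adjusted p = 2.12e-08), 0.31 (adjusted p = 9.85e-06) and 0.25 (adjusted p = 0.000248). The remaining tested gene, PVRL2, was at -0.16 (adjusted p = 0.0706). With edgeR, under quantile normalization or without Caki2+Vector A, 1 of the 5 fell.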
